A study of Danio rerio with 8 samples.

Results

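Collagen I, fibronectin and sparc transcripts were followed in 8 zebrafish melanomas through 6 genes chosen by their Ensembl identifiers: col1a1a (ENSDARG00000012405), col1a1b (ENSDARG00000035809), col1a2 (ENSDARG00000020007), fn1a (ENSDARG00000019815), fn1b (ENSDARG00000006526) and sparc (ENSDARG00000019353). All 6 were among the 22416 genes listed, and all 6 had a mean of at least 1 fpm, the level at which a gene was tested. Control tumours carried Tg(mitfa:egfp) (n = 3) and test tumours Tg(mitfa:dgat1a) (n = 5), each transgene under the mitfa promoter and delivered with miniCoopR, a vector that also restores mitfa. The fish of both groups were tp53m214K/m214k, mitfa-/- and nras G12D, and tumours were taken at 10 to 12 weeks of age. The study asked what extra dgat1a, a triacylglycerol-synthesis enzyme, changes in these tumours. RNA came from tissue removed whole, and the mitfa promoter acts in the melanocyte lineage, so the tables do not separate transcripts of transgenic melanoma cells from those of other cells in the tumour.

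Collagen I is the main fibrillar protein of skin and bone matrix, a helical rope wound from chains that fibroblasts, osteoblasts and, in fish, skin cells secrete. Fibronectin is a secreted adhesive glycoprotein that cells assemble into fibrils through integrin receptors and on which collagen can be laid down. Sparc is a collagen-binding glycoprotein that is not part of the fibril itself. In tumours these transcripts are commonly used as a readout of matrix-producing cells, and melanoma cells can make fibronectin and sparc themselves.

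The libraries held 20936089 to 26865735 reads in listed genes, and values are given in fpm, the authors' per-million signal, in which 3 reads equal 0.109 to 0.138 fpm. No label says whether the tumours of a group came from separate fish, so p-values measure the spread between these samples. Of the IDs that the name table calls DGAT1, ENSDARG00000103503 had 26.5 to 75.06 fpm in egfp tumours and 2223 to 4160 fpm in dgat1a tumours, while ENSDARG00000054914 had 3.03 to 5.96 fpm over all 8. One control, egfp replicate 1, stood apart in the number of listed genes at 0: 1232 there, against 353 to 777 in the other libraries. It was the lowest of the 8 tumours in 6 of the 6 matrix genes, and in 23.4% of the 16853 genes tested. It was also the highest in 20.7% of the genes tested, and these shares were not computed for other tumours. The 23921802 reads of egfp replicate 1 lay within the range of the other libraries. Log2 fold changes are therefore also given without it, in a fit whose only controls are egfp replicates 2 and 3.

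None of the 6 genes differed between dgat1a and egfp tumours past the threshold, an adjusted p under 0.05 over all genes tested. With limma 0 of 6 passed, as did 9 genes or 0.0534% of all those tested. Without egfp replicate 1 again 0 of 6 passed, against 0.0297% of all genes. The edgeR quasi-likelihood test on recovered reads called 0 of 6 (0.0178% of all genes), and so did DESeq2, which called 5.2% of the genes it gave an adjusted p. At an unadjusted limma p under 0.05 there were 2 of 6, fn1a and fn1b, both with higher means in dgat1a tumours, where 6.83% of all genes were higher at that level. In edgeR the number at an unadjusted p under 0.05 was 0 of 6, where 2777 of 16853 genes reached that level. In DESeq2 it was 2 of 6, where 3196 genes did. In limma it was 0 of 6 without egfp replicate 1, where 1510 of 16853 genes reached that level. Without egfp replicate 2 it was 4 of 6, where 3124 genes did, and 0 of 6 passed the adjusted threshold. The groups overlapped in all 6 genes, and they did not overlap in 10.4% of all genes. What the members showed instead was a large spread among tumours, shared almost exactly by the collagen I genes and followed less closely by the others.

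**Figure D1:**
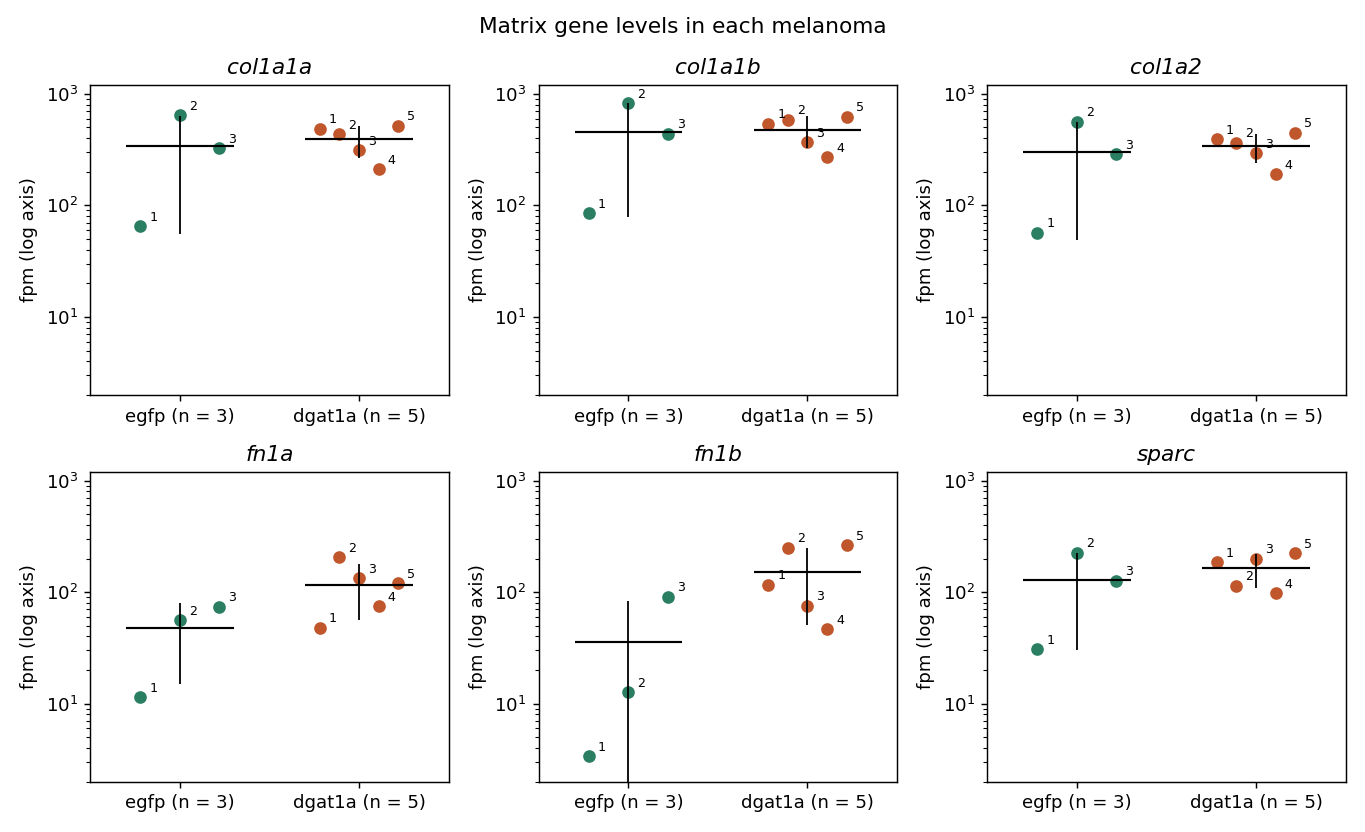
Level of each gene in each tumour in fpm on a log axis, with the replicate number beside each point, the group mean as a horizontal line and the SD as a vertical line, cut at the axis where it runs below. In col1a1a, col1a1b, col1a2 and sparc all 5 dgat1a tumours lie inside the egfp range, while 4 of 5 for fn1a and 3 of 5 for fn1b lie above the highest egfp tumour.

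The chain genes of collagen I were taken first. col1a1a, which encodes an alpha-1 chain, measured 64.8, 639.0 and 325.4 fpm in egfp replicates 1 to 3, and 485.8, 432.6, 310.2, 211.02 and 515.4 fpm in dgat1a replicates 1 to 5. The highest and the lowest tumour were both egfp controls, and every dgat1a tumour lay between them. The means were 343.06 ± 287.5 fpm (SD, n = 3) and 391.01 ± 127.6 fpm (SD, n = 5). Limma's log2 fold changes, here and below, are differences between group means of log2 values, not log ratios of such fpm means. For col1a1a the log2 fold change was 0.64 (standard error, SE, 0.64, with a 95% interval of -0.80 to 2.08, limma adjusted p = 0.65). The sign turned without egfp replicate 1, to -0.29 with an interval of -1.22 to 0.63 (limma adjusted p = 0.86). Without egfp replicate 2, the highest tumour, the log2 fold change was 1.35 (limma adjusted p = 0.271).

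col1a1b, the second zebrafish copy of the alpha-1 chain gene, whose product is also called alpha-3, measured 84.6, 825.9 and 440.05 fpm in the egfp tumours. The dgat1a tumours had 538.7, 583.9, 366.6, 268.9 and 624.4 fpm. The order was close to that of col1a1a, with egfp replicate 2 at the top, egfp replicate 1 at the bottom and dgat1a replicate 4 next to last. Its log2 fold change was 0.53 with a 95% interval of -0.90 to 1.97 (limma adjusted p = 0.705), and -0.41 with an interval of -1.30 to 0.48 without egfp replicate 1.

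col1a2, which encodes the alpha-2 chain, measured 56.6, 560.6 and 287.8 fpm in the egfp tumours and 389.5, 363.95, 293.4, 190.4 and 448.9 fpm in the dgat1a tumours. Here too the egfp tumours held both extremes. Its log2 fold change was 0.63 with a 95% interval of -0.79 to 2.05 (limma adjusted p = 0.652), and -0.31 with an interval of -1.18 to 0.55 without egfp replicate 1. The 3 chain genes together took 0.0196% of the reads of egfp replicate 1 (95% Wilson interval 0.019 to 0.0201, counting error only) and 0.198% of those of egfp replicate 2 (0.196 to 0.2). In the dgat1a tumours the share ran from 0.0684% to 0.175%.

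The chain genes kept nearly fixed proportions while their levels moved. The ratio of the highest to the lowest tumour was 9.86 for col1a1a, 9.77 for col1a1b and 9.90 for col1a2. The log2 ratio of col1a1a to col1a2, in which gene length cancels between tumours, stayed between 0.08 and 0.32. Its SD over the 8 tumours was 0.07 log2 units, where each chain gene alone had an SD of 1.02 to 1.04. In egfp replicate 1, with the lowest levels, the proportions lay within the range of the other tumours. The 3 egfp tumours had a mean log2 ratio of 0.19 ± 0.01 (SD, n = 3) and the dgat1a tumours 0.20 ± 0.09 (SD, n = 5). The log2 ratio of col1a1b to col1a1a ranged from 0.15 in dgat1a replicate 1 to 0.44 in egfp replicate 3.

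The spread within groups was uneven. On the log2 scale the chain genes had an SD of 1.69 among the egfp tumours and 0.48 to 0.54 among the dgat1a tumours. Over all 8 tumours, the SD of each of the 3 genes exceeded that of 86.7% to 87.4% of tested genes, whose median SD was 0.49. Among the other 7 tumours, without egfp replicate 1, the highest level was 2.94 to 3.07 times the lowest.

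sparc, which encodes the collagen-binding glycoprotein, measured 30.6, 226.4 and 126.9 fpm in the egfp tumours. The dgat1a tumours had 184.3, 113.96, 199.3, 97.4 and 221.9 fpm. Like the chain genes it was highest in egfp replicate 2 and lowest in egfp replicate 1, but dgat1a replicate 2, above the median in collagen I, was among the low tumours for sparc, and dgat1a replicate 3 among the high ones. The means were 127.96 ± 97.9 fpm (SD, n = 3) and 163.4 ± 54.7 fpm (SD, n = 5), with a log2 fold change of 0.69 and a 95% interval of -0.60 to 1.98 (limma adjusted p = 0.578). Leaving out egfp replicate 1 gave -0.13 with an interval of -1.003 to 0.75 (limma adjusted p = 0.944). The log2 ratio of sparc to col1a2 ran from -1.68 in dgat1a replicate 2 to -0.56 in dgat1a replicate 3, a wider range than between any of the chain genes.

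fn1a, a fibronectin gene needed in the zebrafish embryo for heart tube formation, measured 11.4, 56.1 and 74.1 fpm in the egfp tumours. The dgat1a tumours had 48.04, 206.4, 132.8, 74.8 and 120.1 fpm. All but dgat1a replicate 1 lay above the highest egfp tumour, dgat1a replicate 4 by less than 1 fpm. The means were 47.2 ± 32.3 fpm (SD, n = 3) and 116.4 ± 60.8 fpm (SD, n = 5). The log2 fold change was 1.496 (SE 0.63), its 95% interval 0.07 to 2.92 (limma unadjusted p = 0.0414, adjusted p = 0.317). Leaving out egfp replicate 1 gave 0.68 with an interval of -0.45 to 1.81 (limma adjusted p = 0.706).

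fn1b, the second zebrafish fibronectin gene, was the most variable of the 6. It measured 3.39, 12.7 and 91.01 fpm in the egfp tumours, from 77, 288 and 2357 reads. The dgat1a tumours had 116.9, 249.4, 75.8, 46.3 and 263.4 fpm. The egfp tumours split widely, with replicates 1 and 2 under every dgat1a tumour and replicate 3 above 2 of them. The means were 35.7 ± 48.1 fpm (SD, n = 3) and 150.4 ± 100.1 fpm (SD, n = 5). The log2 fold change was 2.87 (SE 0.94), its 95% interval 0.76 to 4.99 (limma unadjusted p = 0.0131, adjusted p = 0.24). Leaving out egfp replicate 1 gave 1.82 with an interval of -0.11 to 3.75 (limma adjusted p = 0.57), and leaving out egfp replicate 3 gave 4.10 (limma adjusted p = 0.123). The SD over all 8 tumours, 2.09 log2 units, exceeded that of 98.9% of tested genes.

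The proportions of the fibronectin genes were not fixed as those of the collagen chains were. The log2 ratio of fn1b to fn1a was -1.74, -2.15 and 0.30 in the egfp tumours and 1.28, 0.27, -0.81, -0.69 and 1.13 in the dgat1a tumours. It varied within each group, with an SD of 1.31 in egfp and 0.98 in dgat1a tumours. The group means, -1.20 and 0.24, were 1.44 apart, and this difference was not tested. Over the 8 tumours its SD was 1.26, against 0.10 for the ratio of the alpha-1 copies col1a1b and col1a1a. Set against col1a2, the log2 ratio of fn1b ranged from -5.46 in egfp replicate 2 to -0.55 in dgat1a replicate 2. Reads that match both copies of a pair may have been split or dropped by the authors' counting, and this was not tested.

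**Figure D2:**
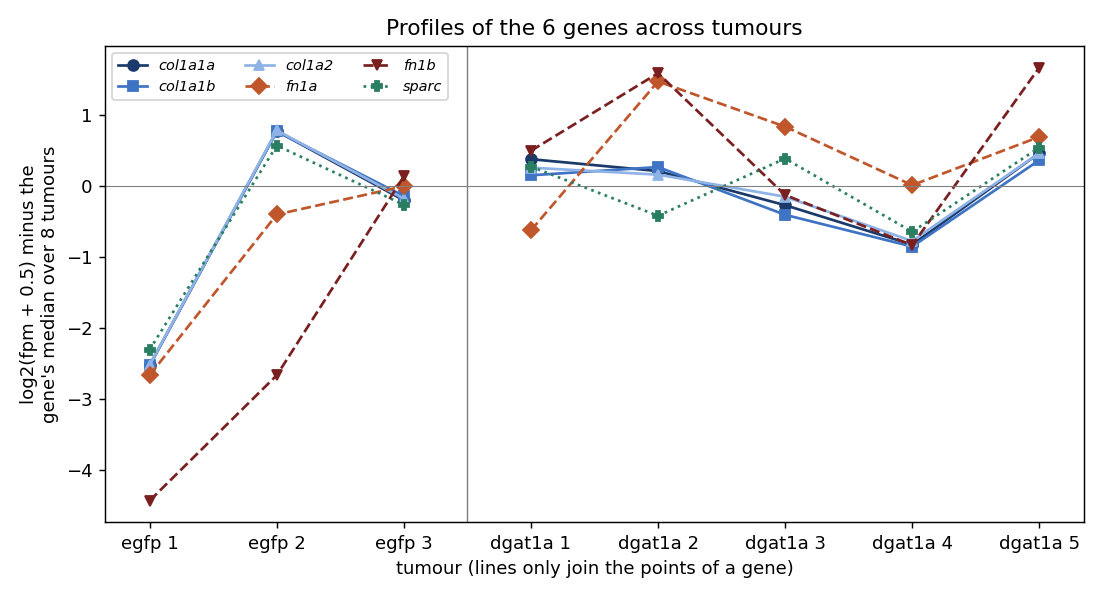
Each gene's log2(fpm + 0.5) in each tumour, minus its own median over the 8 tumours, with lines that only join the points of a gene. The 3 collagen chain genes run together, sparc follows them except in dgat1a replicates 2 and 3, and fn1b departs from them most in egfp replicate 2.

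How the genes moved together was measured over the 8 tumours for all 15 pairs on log2(fpm + 0.5), with two-sided exact permutation tests adjusted over the 15. Pearson's r passed the threshold in 7 pairs: all 6 pairs among the chain genes and sparc, and fn1a with fn1b. col1a1a and col1a2 had r = 0.998 (exact permutation p = 4.96e-05, adjusted 0.000496) and a Spearman's rho of 0.976 (exact permutation p = 0.000397, adjusted 0.00298). The pairs of col1a1b had r = 0.996 with col1a1a and 0.994 with col1a2 (exact permutation p = 9.92e-05 for each, adjusted 0.000496), with rho 0.976 and 0.952 (adjusted exact permutation p = 0.00298 and 0.0057). These held without the 2 tumours farthest from the median, egfp replicate 1 and dgat1a replicate 4, where r was 0.952 to 0.983. Tumours were permuted across both groups, so a group difference shared by 2 genes can enter r and p. As descriptions, r of the chain genes' deviations from their group means was 0.995 to 0.998. Among the 5 dgat1a tumours alone it was 0.969 to 0.99.

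sparc was correlated with col1a2 at r = 0.949 (exact permutation p = 0.00278, adjusted 0.0104) and rho 0.881 (exact permutation p = 0.00724, adjusted 0.0272). With col1a1a r was 0.935 (adjusted exact permutation p = 0.0146) and rho 0.833 (adjusted 0.0461 by the same test), and with col1a1b r was 0.911 (adjusted exact permutation p = 0.0201) and rho 0.786 (adjusted 0.0698). Without egfp replicate 1 these r were 0.768, 0.718 and 0.618 and no longer passed (adjusted exact permutation p = 0.149, 0.22 and 0.312). Without dgat1a replicate 4 they were 0.947, 0.934 and 0.908, of which the last did not pass (adjusted exact permutation p = 0.0429, 0.0486 and 0.0872). Without both, the 2 tumours farthest from the median, they were 0.576, 0.484 and 0.305. fn1a and fn1b had r = 0.849 (exact permutation p = 0.00813, adjusted 0.0201) but a rho of 0.571 (adjusted exact permutation p = 0.324), and r was 0.608 without egfp replicate 1 and 0.453 without that control and dgat1a replicate 2. Neither of these 2 values passed (adjusted exact permutation p = 0.312 and 0.652), which with so few tumours does not show that the relation was absent. Without dgat1a replicate 2 alone r was 0.816 (adjusted exact permutation p = 0.0629). Without dgat1a replicate 1 alone it was 0.914 (adjusted exact permutation p = 0.0119). As descriptions, r of the deviations from group means was 0.739 for fn1a with fn1b. For sparc it was 0.944 with col1a2, 0.928 with col1a1a and 0.907 with col1a1b. Among the 5 dgat1a tumours alone, r was 0.496 for fn1a with fn1b, and 0.687, 0.615 and 0.489 for sparc in the same order.

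Between the fibronectin genes on one side and the chain genes or sparc on the other, r lay between 0.609 and 0.719 over 8 tumours and did not pass (adjusted exact permutation p = 0.0992 to 0.114). It fell to between -0.20 and -0.02 without egfp replicate 1. The r of fn1b also depended on another control, egfp replicate 2, which had the most collagen and little fn1b. Without egfp replicate 2, fn1b and the chain genes had r of 0.977 to 0.989 (adjusted exact permutation p = 0.00298 to 0.00347). That tumour had the lowest ratio of fn1b to col1a2, and the fit was singled out after its values were seen. These p do not allow for that choice, and egfp replicate 1 was still included. Among the 5 dgat1a tumours alone, fn1b and the chain genes had r of 0.876 to 0.95, and fn1a and the chain genes 0.104 to 0.257, given as descriptions.

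**Figure D3:**
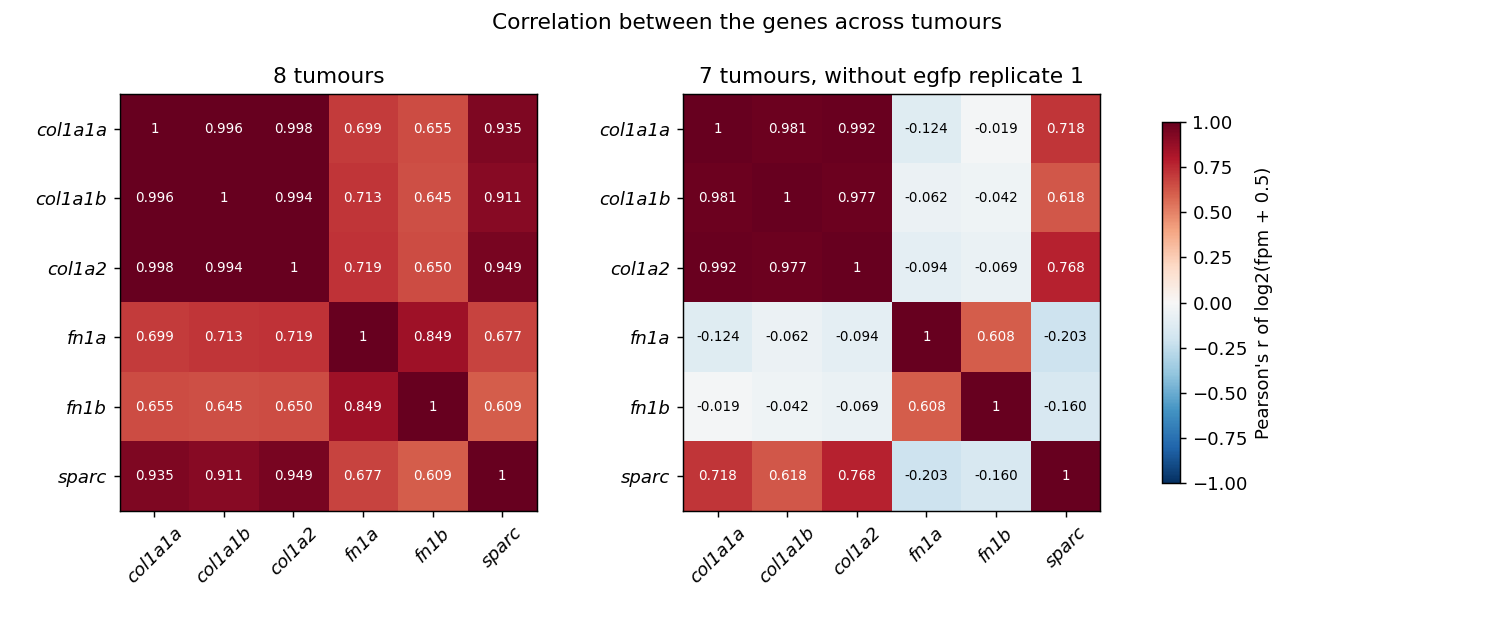
Pearson's r between the genes' log2(fpm + 0.5) over 8 tumours (left) and over 7 without egfp replicate 1 (right). The chain genes stay at 0.977 or more in both, while the fibronectin genes go from 0.609 to 0.719 against the chain genes and sparc to between -0.20 and -0.02.

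The genes whose profiles were most like each member were looked up among the other 16852 tested genes by r over the 8 tumours. These were picked as the highest of many, so no p is given. For each chain gene the other 2 chain genes ranked first and second. The third was adamts2a for col1a1a (r = 0.974), a gene of the protease family that trims the procollagen end, and meis1a, a homeobox transcription factor, for col1a1b (r = 0.972) and col1a2 (r = 0.976). sparc ranked 18th for col1a2, and fn1a ranked 985th. With that control left out the chain genes still took ranks 1 to 4 for one another, while sparc moved to rank 206 for col1a2, adamts2a to rank 27 for col1a1a, and meis1a to ranks 30 and 13 for col1a1b and col1a2.

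For sparc the closest genes were SCARA3 (r = 0.983), RBP4, the retinol-binding protein of plasma (r = 0.983), and mhc1zaa, an antigen-presenting class I gene (r = 0.981). The collagen VI chain genes COL6A2, col6a1 and COL6A3 held ranks 4, 6 and 7 (r = 0.969 to 0.981), a group picked out after its values were seen, ahead of col1a2 at rank 20. For fn1a the closest were HYOU1, a chaperone of the endoplasmic reticulum (r = 0.977), b4galt5, a galactosyltransferase (r = 0.973), and VPS36, an endosomal sorting protein (r = 0.973). For fn1b they were AP4M1, an adaptor subunit of vesicle transport (r = 0.989), MIX23 (r = 0.979) and ILF2 (r = 0.963), an RNA-binding protein. Without egfp replicate 1, SCARA3, RBP4 and mhc1zaa were at ranks 12, 13 and 5 for sparc, and COL6A2, col6a1 and COL6A3 at ranks 6, 10 and 52. HYOU1, b4galt5 and VPS36 were then at ranks 11, 13 and 44 for fn1a, and AP4M1, MIX23 and ILF2 at ranks 2, 6 and 17 for fn1b. With all tumours fn1a was rank 169 for fn1b, and no collagen I gene was closer than rank 1452 to fn1b.

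**Figure D4:**
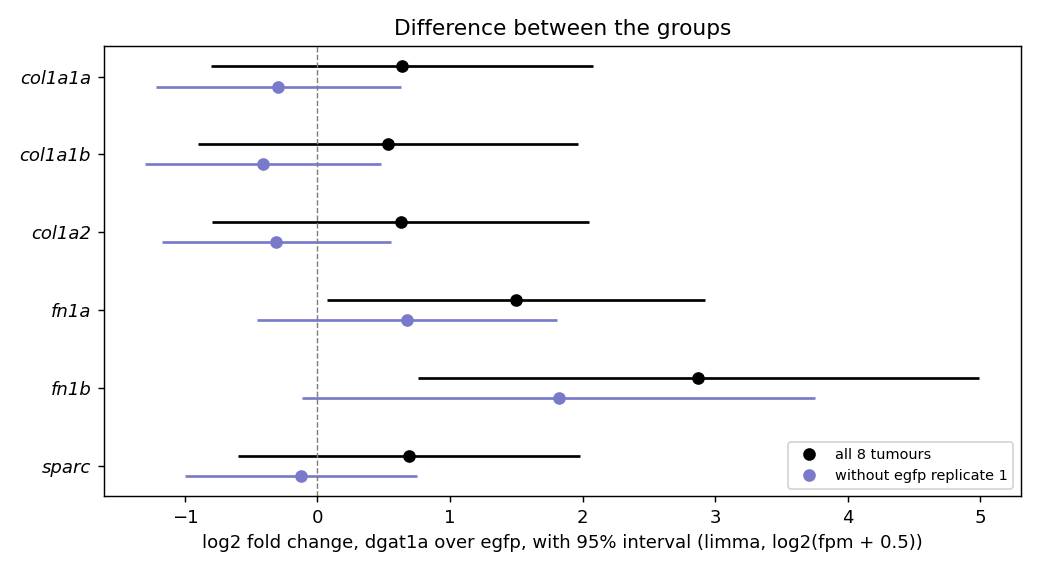
Log2 fold change of dgat1a over egfp tumours with its 95% interval (limma), for all 8 tumours in black and without egfp replicate 1 in violet. The chain genes and sparc change sign, from between 0.53 and 0.69 to between -0.41 and -0.13, and the fn1a and fn1b intervals, above 0 with all tumours, include 0 without that control.

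The other genes of the matrix pathway were read from lists of symbols matched to the IDs, in which capitals are the name table's own spelling. In none of the 5 lists did any gene pass the threshold in either direction in limma, with all tumours or without egfp replicate 1. Of the other fibrillar and associated collagens 0 of 13 tested passed, and at an unadjusted limma p under 0.05 1 was higher and 1 lower, where 6.83% and 8.18% of all genes were. Their median log2 fold change was 0.64, against 0.04 for all genes, and it was -0.22 without egfp replicate 1, against 0.02. In egfp replicate 1 10 of the 13 were lowest, and the summed level of the list was 229.1 fpm there, against 834 to 1338 fpm in the other tumours. The 3 with the smallest p were 2 IDs named COL12A1, a collagen that sits on fibril surfaces, and col11a1b, a minor fibrillar collagen. ENSDARG00000019601 (COL12A1) had 18.1 ± 15.04 fpm (SD, n = 3) in egfp and 70.5 ± 48.7 fpm (SD, n = 5) in dgat1a tumours, a log2 fold change of 2.44 (limma adjusted p = 0.285) that was 1.12 without egfp replicate 1. ENSDARG00000078322 had 1.63 (limma adjusted p = 0.352), and 0.48 without that control. col11a1b had 61.1, 19.97 and 576.2 fpm in the egfp tumours against 11.7 to 32.3 fpm in the dgat1a tumours, a log2 fold change of -2.16 (limma adjusted p = 0.302), and -2.43 without egfp replicate 1.

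The genes for collagen folding, crosslinking and processing had a median that did not turn with egfp replicate 1, as in some lists read below. It was 0.65 with all tumours and 0.60 without that control, and 19 of 21 tested genes had a positive log2 fold change, against 53.6% of all genes. None passed in limma, 5 had an unadjusted p under 0.05 and a higher mean in dgat1a tumours (6.83% of all genes), and in 3 the groups did not overlap (10.4% of all genes). ENSDARG00000044074 (LOXL2), which crosslinks collagen and elastin, had 3.30, 12.1 and 7.95 fpm in egfp tumours and 22.3 to 46.3 fpm in dgat1a tumours. Its log2 fold change was 2.04 (SE 0.40, limma adjusted p = 0.149). loxl2a, listed under another ID, had 0.749, 7.18 and 7.99 fpm against 2.19 to 22.9 fpm, and its groups overlapped. The log2 fold change of loxl2a was 1.01 (limma adjusted p = 0.557), and 0.11 without egfp replicate 1. PPIB, a prolyl isomerase of the endoplasmic reticulum that acts in collagen folding, had 410.9, 417.6 and 359.9 fpm against 500.5 to 685.6 fpm, a log2 fold change of 0.63 (limma adjusted p = 0.215). PLOD2, a lysyl hydroxylase, had 0.396 to 3.44 fpm in egfp tumours and 3.34 to 90.2 fpm in dgat1a tumours, a log2 fold change of 2.88 (limma adjusted p = 0.242). Without egfp replicate 1 the log2 fold changes of LOXL2, PPIB and PLOD2 were 1.56, 0.65 and 2.35. The summed level of the list was 1007, 1057 and 1025 fpm in the egfp tumours. It was 1310 to 2201 fpm in the dgat1a tumours, without overlap. Such a sum mostly follows its highest genes: PPIB alone held 359.9 to 417.6 fpm of it in egfp and 500.5 to 685.6 fpm in dgat1a tumours. Gene by gene, the groups overlapped in all but 3 of the 21. As descriptions, r with col1a2 was 0.67 for LOXL2, 0.32 for PPIB and 0.46 for PLOD2 over 8 tumours, and -0.02, -0.05 and -0.10 over 7 without egfp replicate 1.

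In the remaining lists 0 of 13 matrix glycoproteins and proteoglycans, 0 of 14 receptors and 0 of 7 turnover genes passed in limma. At an unadjusted p under 0.05, 0, 2 and 1 of them were higher, where 6.83% of all genes were, and 1 in each list was lower, where 8.18% were. The median log2 fold changes were 0.33, 0.13 and 0.70. With that control left out those medians were -0.24, -0.20 and 0.02. Among the receptors, ITGA4, an integrin chain that binds fibronectin, had 6.21, 7.23 and 32.8 fpm in egfp tumours and 33.1 to 73.8 fpm in dgat1a tumours, a log2 fold change of 2.06 (limma adjusted p = 0.193). ITGAV, an integrin chain for fibronectin and vitronectin, had 109.7 to 151.3 fpm against 163.6 to 485.8 fpm, a log2 fold change of 0.92 (limma adjusted p = 0.26). ITGA5, the classical fibronectin receptor chain, had 87.7 to 237.2 fpm against 60.8 to 127.3 fpm and a log2 fold change of -0.80 (limma adjusted p = 0.317). Without egfp replicate 1, where ITGA5 was highest, it was -0.44, and ITGA4 and ITGAV had 1.64 and 0.77. Of the glycoproteins, ENSDARG00000078362 (TNC), tenascin C, had 90.03, 4.495 and 24.7 fpm in egfp tumours and 2.33 to 9.76 fpm in dgat1a tumours. Its log2 fold change was -2.29 (limma adjusted p = 0.256), and -1.28 without egfp replicate 1. The other TNC ID, ENSDARG00000021948, had -0.82 (limma adjusted p = 0.553), and -0.24 without that control. ENSDARG00000012066 (DCN), decorin, a proteoglycan that binds collagen fibrils, had 2.42 fpm in egfp replicate 1 and 27.3 to 72.7 fpm elsewhere, a log2 fold change of 1.44 (limma adjusted p = 0.407) that was 0.22 without that control. ENSDARG00000017884 (BGN), the related biglycan, had a log2 fold change of -1.19 (limma adjusted p = 0.453), and -1.20 without it. The other BGN ID, ENSDARG00000002945, went the other way, at 0.54 (limma adjusted p = 0.673), and 0.28 without that control. The IDs named TIMP2, an inhibitor of matrix proteases, went apart, with log2 fold changes of 1.27 for ENSDARG00000075261 and -0.85 for ENSDARG00000061226 (limma adjusted p = 0.229 and 0.287), and 0.96 and -0.78 without egfp replicate 1. ENSDARG00000002235 (MMP14), a membrane-bound matrix protease, had 4.54 fpm in egfp replicate 1 and 25.7 to 56.9 fpm elsewhere. Its log2 fold change was 1.19 (limma adjusted p = 0.38), and 0.29 without that control. The other MMP14 ID, ENSDARG00000008388, had 184.6 to 375.1 fpm over all tumours. Its log2 fold change was -0.31 (limma adjusted p = 0.513), and -0.22 without egfp replicate 1.

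**Figure D5:**
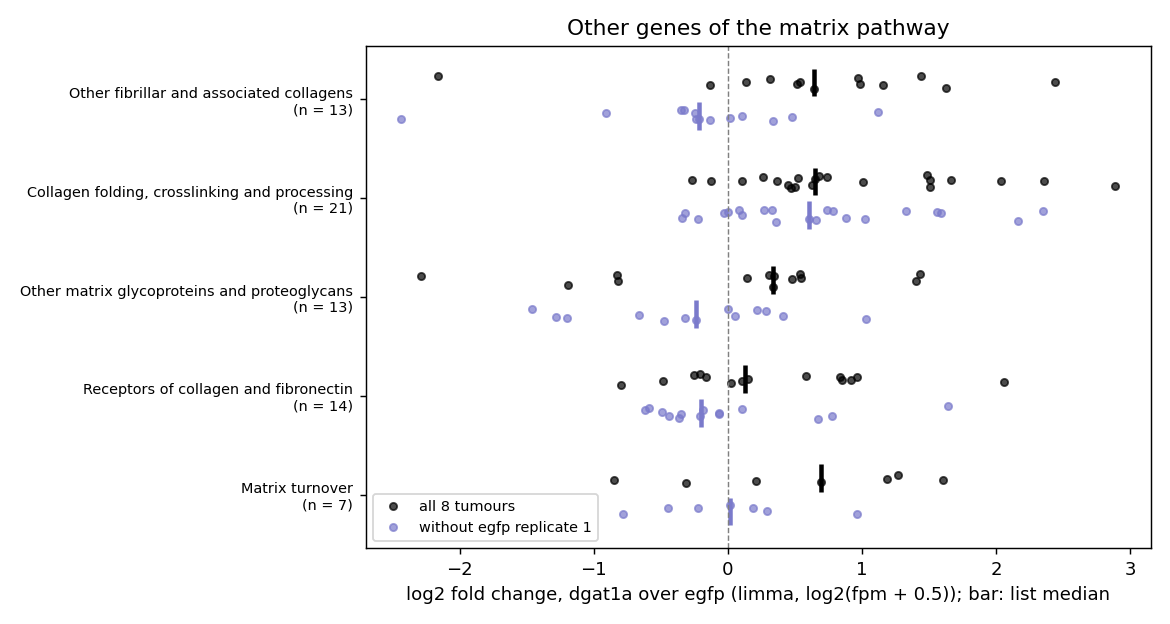
Log2 fold change of dgat1a over egfp tumours for each tested gene of 5 matrix lists (points) and the list median (bar), with all 8 tumours in black and without egfp replicate 1 in violet. The median of the folding, crosslinking and processing list is 0.65 and 0.60 in the 2 fits, while that of the other collagens goes from 0.64 to -0.22.

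Markers of other cells that a removed tumour can hold were set beside the matrix genes, with single markers picked after their values were seen. In bulk tissue, fewer cells of a type and less RNA per cell cannot be told apart. The summed level of 5 keratinocyte genes was 384.8 fpm in egfp replicate 1 and 959 to 3339 fpm in the other 7 tumours. krt5, a keratin of basal skin cells, had 16.7 fpm in egfp replicate 1 and 584.5 to 2473 fpm elsewhere, and its r with col1a2 was 0.929 over 8 tumours and 0.599 without that control. Of the 5 genes 4 were lowest in egfp replicate 1, and cdh1, an epithelial cadherin, went the other way: it made up 360.9 fpm of the sum there, the second highest level of the 8 tumours, and its r with col1a2 was -0.35. The melanocyte lineage genes summed to 7141 fpm in egfp replicate 1, within the range of 3949 to 19241 fpm in the others, with none of the 9 IDs at 0 in any library. Fibroblast and mesenchyme genes summed to 155.9 to 248.1 fpm in egfp tumours and 87.7 to 367.3 fpm in dgat1a tumours. PDGFRA and PDGFRB, receptors that mark fibroblasts and pericytes, were lowest in egfp replicate 1, at 2.03 and 23.5 fpm, though PDGFRA had 2.08 fpm in egfp replicate 3. CDH11, a mesenchymal cadherin, was highest in egfp replicate 1, at 213.8 fpm of a list sum of 243.0 fpm. Of the 7 tested genes of this list 4 were lowest in egfp replicate 1 and 1 highest, where 23.4% and 20.7% of all genes were. The part of cell content in the levels of the matrix genes was not tested.

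Osteoblast and scale genes summed to 64.8, 617.2 and 20.7 fpm in egfp replicates 1 to 3 and 26.5 to 294.2 fpm in dgat1a tumours. The sum was highest in egfp replicate 2, the collagen-richest tumour. Most of it there came from the IDs named COL10A1, ENSDARG00000101535 (515.8 fpm) and ENSDARG00000054753 (63.9 fpm). The latter was highest in dgat1a replicate 1, at 135.0 fpm. runx2b and spp1 were highest in dgat1a replicate 5, at 4.05 and 26.4 fpm, against 1.81 and 25.3 fpm in egfp replicate 2. SP7, a transcription factor of bone-forming cells, was highest in egfp replicate 2, as were DLX5 and ENTPD5. SP7 had r = 0.85 with col1a2 over 8 tumours and 0.81 without egfp replicate 1, at levels of at most 2.38 fpm. Over the 7 tested genes of this list, r with col1a2 ran from 0.39 to 0.88 with all tumours. Without that control it ran from 0.05 for DLX5 to 0.87 for ENSDARG00000101535. Skeletal muscle genes summed to 0.849 to 7.45 fpm in egfp tumours and reached 349.7 fpm in dgat1a replicate 1. Endothelial genes summed to 51.4 to 105.03 fpm and 50.2 to 98.6 fpm. The leukocyte genes summed to 117.1 to 141.6 fpm and 138.2 to 363.8 fpm, with lyz at 0 in egfp replicate 1 and none of the 3 IDs at 0 elsewhere. No gene of these cell type lists passed the threshold in limma with all 8 tumours or without egfp replicate 1. With all tumours 1 of 7 fibroblast, 3 of 9 melanocyte and 1 of 2 leukocyte genes tested were higher at an unadjusted limma p under 0.05 (6.83% of all genes), and 1 fibroblast and 1 melanocyte gene lower (8.18% of all genes).

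The size of the group difference depended on the tool. The edgeR quasi-likelihood fit gave log2 fold changes of 0.18 for col1a1a, 0.07 for col1a1b, 0.15 for col1a2 and 0.34 for sparc (edgeR adjusted p = 0.784 to 0.964). It gave 1.30 for fn1a and 2.06 for fn1b (edgeR adjusted p = 0.349 and 0.351). DESeq2 on recovered reads gave 1.31 for fn1a and 2.07 for fn1b (DESeq2 adjusted p = 0.197 and 0.135). The authors' deposited table listed none of the members with an adjusted p under 0.05, against 4.34% of the genes given one. For fn1b the authors' deposited table held 1.35 (SE 0.59, adjusted p = 0.176) as the log2 fold change. The value for fn1a in the authors' deposited table was 1.04 (SE 0.50, adjusted p = 0.233). In the authors' deposited table the chain genes and sparc ranged from 0.07 to 0.29 (adjusted p = 0.801 to 0.964). Whether the authors' fold changes were shrunken by their tool is not given in the sources used here, so their size may not be comparable.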

How the data were processed

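RNA-seq was carried out on 8 melanomas, grouped by their titles. The submitters' processing notes name STAR 2.5.3, featureCounts 1.6.2, DESeq2 1.14.1 and build GRCz11, with no role or order; annotation and strand setting are not given in the sources used here. The authors deposited a per-million signal (fpm), variance-stabilised log2 values, and a comparison that, per the file headers, has columns for log2 fold change, its SE, a test score and p-values. In every fpm column 100% of values were whole multiples of 1 read within 0.01, so whole reads were recovered.

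Genes averaging 1 fpm or more, 16853 in all, were tested with limma 3.58.1 (R 4.3.3, eBayes with an intensity trend) on log2(fpm + 0.5), which understates changes of low genes, two-sided with Benjamini-Hochberg adjustment. edgeR 4.0.16 (quasi-likelihood, TMM) and DESeq2 1.42.0 on recovered reads, pseudocounts of 0.1 and 1, other filters (none, a mean of 5 fpm), TMM and quantile scaling, the variance-stabilised values, replicates 1 to 3 with and without a replicate block, and leaving out each tumour were the alternatives. edgeR without egfp replicate 1, and list counts without it, were alternatives chosen after seeing the data. The limma, edgeR and DESeq2 fits of all tumours were tried on simulated counts, and the other alternatives were not. No library pair was a duplicate (smallest chi-square 72.96 per degree of freedom), and 0 per-sample columns were left out.

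The name table paired 21017 of 22416 IDs (93.8%) with symbols. It gives COL1A1, COL1A2, SPARC and, for both fibronectin IDs, FN1; the zebrafish symbols of those 5 members come from the definition of the gene set. List symbols were matched ignoring case, then without a copy letter, so an ID in capitals can be either copy. Symbols that matched no ID were left out of the lists. In the folding, crosslinking and processing list 19 of 20 symbols matched, and adamts2 did not, though adamts2a was tested. Named were all members, the 3 most alike genes of each, and the 3 list genes with the smallest p in the matrix lists. Other IDs of the same gene name, and single genes picked after their values were seen, were added. The members and lists were chosen with earlier results of these data known. fpm is not divided by gene length, so levels of different members are not compared. The list sums, and the part of a gene in them, also depend on gene length.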

Additional observations from a re-analysis of the deposited data

How the results depend on the processing

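The number of members past the threshold was 0 in all 20 alternative fits, whose smallest adjusted p for any member was 0.123 (limma, fn1b without egfp replicate 3). Of 120 log2 fold changes of members under other settings, 112 kept sign and side and 8 turned, all 8 without egfp replicate 1. For the chain genes and sparc the lowest values came without egfp replicate 1 and the highest without egfp replicate 2. Leaving out each tumour gave ranges of -0.29 to 1.35 for col1a1a, -0.41 to 1.23 for col1a1b, -0.31 to 1.34 for col1a2 and -0.13 to 1.31 for sparc. edgeR's quasi-likelihood test with egfp replicate 1 left out gave -0.29, -0.40, -0.32 and -0.10 in that order. fn1a ranged from 0.68 to 2.004 and fn1b from 1.52 to 4.10 over all alternatives.

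The count over all genes, 9 in limma, was 7 to 11 under the other pseudocounts, filters and scalings. It was 3 with the edgeR quasi-likelihood test (0 with egfp replicate 1 left out, where 1630 genes had an unadjusted p under 0.05), 866 with DESeq2, 4 with replicates 1 to 3 only and 0 with the replicate block, where limma had 2080 genes at an unadjusted p under 0.05. Leaving out each tumour gave 5 to 55 genes, 5 without egfp replicate 1 and 55 without egfp replicate 2. No label ties same-numbered tumours, so the numbers were not taken to pair them. The deviations of same-numbered tumours from their group means had r of 0.24, 0.07 and 0.01. The 12 differently numbered pairs had -0.25 to 0.20. With only 3 controls these r cannot exclude a pairing. With the replicate block 0 members passed. The log2 fold changes were then 1.58 for fn1a and 2.97 for fn1b, the same as in those 6 tumours without the block. The cause of these shifts was not tested.

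Of the 15 correlations, 7 passed with all tumours, 3 (the chain genes) without the 2 tumours farthest from the median and without egfp replicate 1, and 11 without egfp replicate 2. The 2 farthest tumours were chosen on the first gene of a pair, so they differed between pairs. For pairs of a chain gene they were egfp replicate 1 and dgat1a replicate 4. Without these, r turned negative for col1a1a with fn1a and fn1b (-0.36, -0.32), col1a1b with fn1a and fn1b (-0.26, -0.34) and col1a2 with fn1a and fn1b (-0.33, -0.41). Leaving out each tumour gave -0.12 to 0.81 and -0.019 to 0.98 for col1a1a with fn1a and fn1b, -0.062 to 0.84 and -0.042 to 0.99 for col1a1b, -0.094 to 0.84 and -0.069 to 0.98 for col1a2, and -0.20 to 0.83 and -0.16 to 0.87 for sparc. With 77 or more reads for every member in every library, counting error was small beside the spread among the 3 and 5 tumours per group.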
